A study of Rattus norvegicus with 9 samples.

Results

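Genes that let calcium into the cytosol of the arterial smooth muscle cell, release it from the stores and pump it back were followed through ischemic injury in the superior mesenteric arteries (SMAs) of rats. The 10 genes were the voltage-gated channel subunits Cacna1c, Cacna1h and Cacnb2, the store release channels Ryr2 and Itpr1, the store pump Atp2a2, the receptor-operated channel subunits Trpc1 and Trpc6, and Stim1 and Orai1 of store-operated entry. They were chosen by symbol for their role and not by a measured value, though with earlier results of these data known. All 10 were found among the 37203 gene symbols of the count table, in all 9 libraries, and all 10 had enough counts to be among the 15482 genes tested.

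The SMA supplies most of the small intestine. Arteries came from 8-week-old Sprague-Dawley (SD) rats in 3 groups of 3 libraries each, normal, Ischemia 1h and Ischemia 4h, and no genetic change was made in any group. Ischemia was a hemorrhage model: blood was drawn through a catheter in the right femoral artery under sodium pentobarbital, and ischemia was timed from the end of that step, so that 1 h stands for the early stage and 4 h for the late stage of ischemic injury. What anaesthesia or catheter the normal rats had is not given in the sources used here, and the whole vessel was taken, with whatever nerve, fat and endothelium it carried. The series text gives 3 rats per group, while the methods of the study speak of 3 individuals for the 9 samples without saying whether each group had its own. Whether libraries of different groups share a rat is therefore not known. The libraries were analysed as separate samples, and p-values measure the spread between these libraries, which may be technical.

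A smooth muscle cell contracts when cytosolic calcium rises. The L-type channel, whose pore is Cacna1c and whose auxiliary beta subunit is Cacnb2, opens when the membrane depolarizes, as does the T-type channel Cacna1h at more negative voltages. The sarcoplasmic reticulum releases calcium through the inositol trisphosphate receptor Itpr1 and the ryanodine receptor Ryr2, and the pump Atp2a2 (SERCA2) refills it. Transient receptor potential channels such as Trpc1 and Trpc6 let cations in after receptor stimulation, and Stim1 senses an empty store and opens Orai1 in the plasma membrane. Myh11, the smooth muscle myosin heavy chain, is a defining marker of the contractile cell and served here as the measure of smooth muscle content.

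Total counts ran from 13114273 to 15504240 per library. Levels are given as CPM, counts relative to library size, with library sizes scaled by the TMM method, and 1 CPM then stands for 12.1 to 17.9 counts. Myh11 was present in every library, at 4693, 19247 and 17714 CPM in the normal group, 8723, 17089.6 and 4826 CPM at 1 h and 23515, 18919 and 9082 CPM at 4 h. It was at most 9082 CPM in 4 libraries (normal replicate 1, replicates 1 and 3 at 1 h and replicate 3 at 4 h) and at least 17089.6 CPM in the other 5, and both ranges held libraries of every group. The 13 smooth muscle markers summed to 13629 to 58449.8 CPM in the normal group, 15348 to 53673 CPM at 1 h and 28511 to 79907 CPM at 4 h. The 23 nerve markers summed to 50.8 to 714 CPM, 1068 to 10094 CPM and 62.3 to 9998 CPM in the same order, with replicates 1 and 3 at 1 h and replicate 3 at 4 h far above the others and no overlap between the normal group and 1 h. In normal replicate 2, 6 of the nerve markers, Dbh among them, were at 0. Such libraries stood apart within their own groups, so results that rest on a single library are also given without it.

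Promoters of 8 of the 10 genes were found by symbol in the RefSeq table of assembly GRCr8 (250 bases before to 50 bases after the annotated start, read 5′ to 3′ on the gene's strand). Those of Cacna1c and Atp2a2, whose transcripts moved with Myh11 across libraries, are shown with those of Trpc6 and Orai1, for which no such relation passed the test. Motif matches are in capitals.
Cacna1c, chr4:154051699-154051998, minus strand: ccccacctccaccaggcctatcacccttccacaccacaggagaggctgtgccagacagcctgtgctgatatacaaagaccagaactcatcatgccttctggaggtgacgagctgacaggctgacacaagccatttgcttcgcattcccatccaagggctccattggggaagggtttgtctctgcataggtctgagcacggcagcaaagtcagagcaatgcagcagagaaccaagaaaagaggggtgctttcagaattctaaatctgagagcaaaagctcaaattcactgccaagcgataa
Atp2a2, chr12:39733269-39733568, plus strand: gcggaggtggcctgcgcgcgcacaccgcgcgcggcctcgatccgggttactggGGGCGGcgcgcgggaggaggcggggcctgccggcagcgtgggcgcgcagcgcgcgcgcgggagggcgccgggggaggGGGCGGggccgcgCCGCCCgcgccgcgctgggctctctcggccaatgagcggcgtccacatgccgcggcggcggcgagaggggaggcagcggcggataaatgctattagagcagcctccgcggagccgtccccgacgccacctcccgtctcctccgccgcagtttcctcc
Trpc6, chr8:14043966-14044265, plus strand: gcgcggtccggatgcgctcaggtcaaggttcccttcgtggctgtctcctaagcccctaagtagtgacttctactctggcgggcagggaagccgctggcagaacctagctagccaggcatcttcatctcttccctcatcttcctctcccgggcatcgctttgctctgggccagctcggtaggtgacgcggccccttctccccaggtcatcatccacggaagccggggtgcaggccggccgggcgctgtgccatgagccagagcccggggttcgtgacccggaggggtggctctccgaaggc
Orai1, chr12:39208981-39209280, minus strand: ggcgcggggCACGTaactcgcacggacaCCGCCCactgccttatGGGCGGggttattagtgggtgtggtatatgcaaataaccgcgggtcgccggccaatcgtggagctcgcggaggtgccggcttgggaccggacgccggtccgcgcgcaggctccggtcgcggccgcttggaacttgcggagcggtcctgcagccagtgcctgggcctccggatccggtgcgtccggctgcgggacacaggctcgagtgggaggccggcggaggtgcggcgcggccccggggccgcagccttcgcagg
The motifs searched, on both strands, were the CArG box (the site of serum response factor), GGGCGG (the GC box), the cyclic AMP response element TGACGTCA, and ACGTG, the core that hypoxia-inducible factors bind. The TATA box was searched as TATAAA. None of the 8 promoters held a CArG box, TATAAA or TGACGTCA, which were present in 1.64%, 14.3% and 1.91% of all 27457 promoters of that length. GGGCGG, present in 34.9% of all, was found in 5 of the 8: Cacnb2, Ryr2, Atp2a2, Stim1 and Orai1. In Atp2a2 its first bases lay at -197, -120 and -107 from the start, where the match at -107 is on the other strand and is printed as CCGCCC. In Orai1 they lay at -222, on the other strand, and at -206. ACGTG, present in 19.7% of all, was found in Orai1 alone of the 8, at -241 and on the other strand, printed as CACGT. The Cacna1c and Trpc6 windows held none of these letters. The GC box was thus present in 1 gene and absent from the other in both of the pairs shown, and a missing match speaks only of this window.

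None of the 10 genes was called in any comparison by edgeR's quasi-likelihood test, where a call needed a Benjamini-Hochberg adjusted p under 0.05 over all genes and a fold change over 1.5. DESeq2 also called 0 in each. Over all genes tested, 0.0581% were called at 1 h against normal, 0.0904% at 4 h against normal and 0% at 4 h against 1 h. At an unadjusted p under 0.05, 1 of the 10 genes passed at 1 h, where 16.7% of all genes did, 1 at 4 h (12.4% of all) and 0 at 4 h against 1 h (2.58% of all). That gene was Trpc6 both times. It was also the 1 gene of the 10 whose CPM did not overlap between groups at 1 h (26.3% of all genes) and at 4 h (18.7% of all), and no member was free of overlap at 4 h against 1 h (6.24% of all). The median log2 fold change of the 10 genes was -0.30 at 1 h, with 8 below 0, and 0.06 at 4 h, with 4 below 0. The median over all genes was -0.01 and 0.03. Both comparisons share the normal libraries. In whole-vessel RNA, fewer cells of a type and less RNA per cell cannot be told apart.

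**Figure D1:**
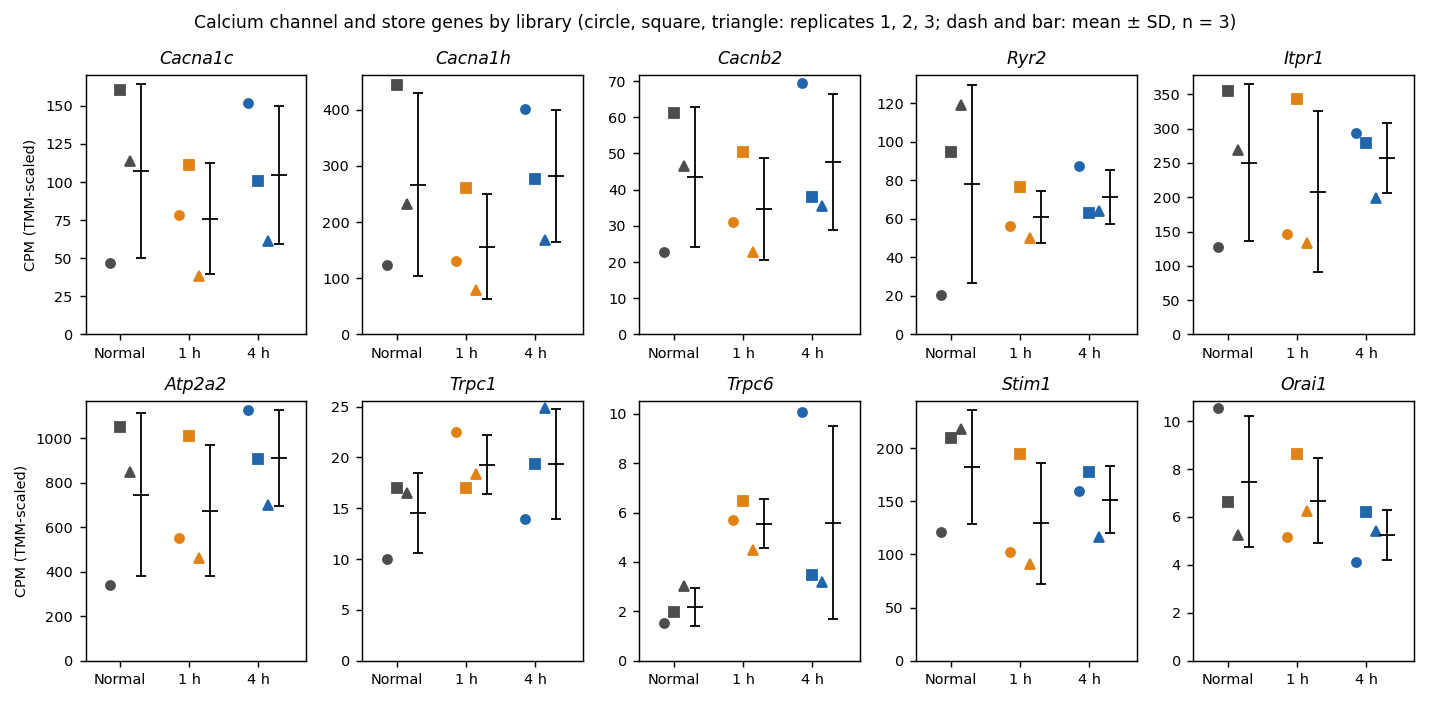
CPM (TMM-scaled, linear axis from 0) of each of the 10 genes in the 9 libraries, by group; circles, squares and triangles are replicates 1, 2 and 3, and the dash and bar are the mean ± SD of 3 libraries. Trpc6 was above all normal libraries in every ischemic library, while the other 9 genes overlapped between groups.

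The voltage-gated subunits were as far apart within a group as between groups. Cacna1c was at 46.9, 161 and 114 CPM in the normal group, 78.1, 111 and 38.5 CPM at 1 h and 152, 101 and 61.1 CPM at 4 h. Its mean was 107 ± 57.1 CPM (SD, n = 3), 75.9 ± 36.3 CPM and 105 ± 45.5 CPM. The lowest normal library lay below replicate 1 and replicate 2 at 1 h, and the groups overlapped throughout. Its log2 fold change was -0.50 ± 0.54 (SE) at 1 h, with a 95% interval of -1.74 to 0.75, and -0.03 ± 0.54 at 4 h, with an interval of -1.27 to 1.21 (edgeR adjusted p = 0.628 and 0.988). The T-type pore Cacna1h was at 124, 443 and 232 CPM in the normal group, 131, 259.8 and 78.7 CPM at 1 h and 401, 276 and 167 CPM at 4 h. Replicate 3 at 1 h was the lowest of all 9 libraries and normal replicate 2 the highest. Cacna1h had the most negative fitted change of the 10 genes at 1 h, -0.77 ± 0.58 on the log2 scale (95% interval -2.10 to 0.56, edgeR adjusted p = 0.475), and 0.08 ± 0.58 at 4 h (interval -1.25 to 1.41). The 1 h value rested on single libraries, since leaving out normal replicate 2 gave -0.21 and leaving out the second library at 1 h gave -1.35. Cacnb2, the beta subunit that carries the L-type pore to the membrane, was at 22.8, 61.2 and 46.6 CPM in the normal group, 31.2, 50.3 and 22.8 CPM at 1 h and 69.4, 37.9 and 35.6 CPM at 4 h. Its log2 fold changes were -0.33 ± 0.44 at 1 h and 0.13 ± 0.44 at 4 h, both within 1 SE of 0. Omission of the same libraries took the 1 h value of Cacna1c to -0.12 and -0.88, and that of Cacnb2 to -0.0256 and -0.69.

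The release channels and the pump gave the same picture. Itpr1 was at 128, 355 and 269 CPM in the normal group, 147, 344 and 134 CPM at 1 h and 293, 279 and 199 CPM at 4 h. Replicate 2 at 1 h came close to the highest normal library, while replicates 1 and 3 stayed near the lowest. The log2 fold change of Itpr1 was -0.27 ± 0.47 at 1 h and 0.04 ± 0.47 at 4 h (edgeR adjusted p = 0.776 and 0.985). Atp2a2 was at 341, 1049 and 851 CPM in the normal group, 550.0, 1011 and 463 CPM at 1 h and 1129.6, 906 and 699 CPM at 4 h. Its groups overlapped, and its log2 fold change was -0.15 ± 0.47 at 1 h and 0.29 ± 0.47 at 4 h (edgeR adjusted p = 0.882 and 0.827).

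Ryr2 was at 20.4, 94.8 and 119 CPM in the normal group, 56.4, 76.4 and 50.2 CPM at 1 h and 87.4, 62.9 and 63.9 CPM at 4 h. Normal replicate 1 was 5.84-fold below normal replicate 3, and these were the lowest and the highest of all 9 libraries, with all 6 ischemic libraries between them. The log2 fold change was -0.36 ± 0.53 at 1 h (95% interval -1.58 to 0.87) and -0.13 ± 0.53 at 4 h (interval -1.35 to 1.09). Without normal replicate 1 it was -0.81 ± 0.25 at 1 h, with an unadjusted edgeR p of 0.0139 and an adjusted p of 0.281, and -0.58 ± 0.25 at 4 h. Ryr2 and Atp2a2 are also abundant in heart muscle, and the 6 cardiac markers summed to 3.14 to 71.4 CPM at 1 h, highest in replicate 2, against 0.840 to 2.59 CPM in the normal group and 1.99 to 3.39 CPM at 4 h. Of these markers, the light chain Myl7 was at 0 in every library. The others in replicate 2 at 1 h were Tnnt2 at 23.4 CPM, Myh6 at 16.8 CPM, Tnni3 at 14.7 CPM, Actc1 at 8.36 CPM and Nppa at 8.16 CPM. Without that library the 1 h log2 fold change was -0.55 for Ryr2 and -0.56 for Atp2a2, neither past the test. It also held the most Myh11 at 1 h, 17089.6 CPM against 8723 and 4826 CPM. The same omission took Cacna1h to -1.35 and Cacna1c to -0.88. The part of heart muscle in these values was not tested.

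Trpc6, which opens on diacylglycerol downstream of contractile receptors, had the widest fitted change. It was at 1.51, 1.97 and 3.03 CPM in the normal group, 5.69, 6.48 and 4.48 CPM at 1 h and 10.1, 3.48 and 3.17 CPM at 4 h, from 27, 27 and 41 counts, 85, 97 and 73 counts and 122, 42 and 48 counts. All 3 libraries at 1 h lay above all 3 normal libraries and close to each other, with a mean of 5.55 ± 1.01 CPM (SD, n = 3) against 2.17 ± 0.778 CPM. At 4 h the lowest library was only just above the highest normal one, and replicate 1 stood well above the other 2. The fitted log2 fold change was 1.35 ± 0.51 at 1 h (95% interval 0.18 to 2.53), with an unadjusted p of 0.0288 and an edgeR adjusted p of 0.279. At 4 h it was 1.36 ± 0.51 (95% interval 0.18 to 2.54), with an unadjusted p of 0.0285 and an edgeR adjusted p of 0.334. Trpc6 therefore failed the correction over all genes at both times. With replicate 1 of the 4 h group omitted, the late value was 0.59 ± 0.40 (unadjusted p = 0.183). The 1 h value kept between 1.15 and 1.67 whichever library was left out, but its unadjusted p was above 0.05 without normal replicate 1 (0.0884), normal replicate 2 (0.0847), replicate 1 at 1 h (0.0591) or replicate 2 at 1 h (0.0741). The same held at 4 h without normal replicate 1 (0.0875) or normal replicate 2 (0.0791).

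Trpc1, which can join Trpc6 and other subunits in mixed channels, was at 9.97, 17.0 and 16.5 CPM in the normal group, 22.5, 17.0 and 18.4 CPM at 1 h and 14.0, 19.3 and 24.8 CPM at 4 h. Normal replicate 1 was the lowest, and the other normal libraries lay close to the lowest library at 1 h and inside the range at 4 h. The log2 fold change of Trpc1 was 0.41 ± 0.29 at 1 h (95% interval -0.25 to 1.08) and 0.42 ± 0.29 at 4 h (interval -0.25 to 1.09), with edgeR adjusted p of 0.446 and 0.58. It did not pass the test.

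The pair of store-operated entry had negative fitted changes at both times, with intervals that spanned 0. Stim1, the sensor, was at 121, 209 and 217 CPM in the normal group, 102, 194 and 90.8 CPM at 1 h and 159.7, 178 and 117 CPM at 4 h. Its log2 fold change was -0.50 ± 0.36 at 1 h (95% interval -1.32 to 0.32) and -0.27 ± 0.36 at 4 h (interval -1.09 to 0.55). Without replicate 2 at 1 h the early value was -0.92 ± 0.32 (unadjusted p = 0.0228, edgeR adjusted p = 0.238). Orai1, the pore, was at 10.5, 6.64 and 5.24 CPM in the normal group, 5.15, 8.62 and 6.27 CPM at 1 h and 4.13, 6.22 and 5.41 CPM at 4 h, from 50 to 188 counts. Normal replicate 1, the library lowest in Myh11, held the highest Orai1, and replicate 1 at 4 h, the highest in Myh11, held the lowest. The 9 endothelial markers were highest and lowest in the same 2 libraries, with sums of 1619, 1038 and 685 CPM in the normal group, 626, 1018 and 788 CPM at 1 h and 507, 861 and 897 CPM at 4 h, and none was at 0. The adipocyte sum was also highest and lowest in these libraries (2643 and 391 CPM), as was the macrophage sum (107 and 21.2 CPM). The Schwann cell sum was highest in normal replicate 1 (4259.6 CPM) but lowest in normal replicate 2 (135 CPM). The part of any of these cell types in the Orai1 values was not tested. The log2 fold change of Orai1 was -0.16 ± 0.35 at 1 h and -0.51 ± 0.35 at 4 h (interval -1.31 to 0.29, edgeR adjusted p = 0.576).

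Between the ischemic groups, no gene of the 10 passed the test. The log2 fold changes at 4 h against 1 h ran from -0.35 ± 0.35 for Orai1 to 0.85 ± 0.58 for Cacna1h, with a median of 0.27 against -0.04 over all genes. Trpc6 stood at 0.01 ± 0.50 and Trpc1 at 0.01 ± 0.29. The 95% interval for Trpc6 was -1.14 to 1.15, so that a fall or a rise of up to about that size was not excluded at this depth and n.

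Across the 9 libraries, the genes of the voltage-gated channels and of the stores followed Myh11, while those of the receptor-operated channels and Orai1 showed no relation that passed the test. Pearson's r of log2 CPM with Myh11 was 0.957 for Cacna1c, 0.929 for Cacna1h, 0.935 for Cacnb2, 0.811 for Ryr2, 0.939 for Itpr1 and 0.965 for Atp2a2. Spearman's rho for these 6 genes ran from 0.800 (Ryr2) to 0.950 (Cacna1h and Atp2a2). Over the 10 relations computed, the exact permutation p adjusted by Benjamini-Hochberg ran from 0.000468 (Atp2a2, unadjusted 4.68e-05) to 0.00286 (Ryr2, unadjusted 0.00172) for r, and from 0.00176 to 0.023 for rho (unadjusted 0.000353 and 0.0138). Stim1 followed Myh11 by r (0.845, exact permutation p = 0.00693, adjusted 0.00989) but not by rank (rho = 0.650, exact permutation p = 0.0666, adjusted 0.0951). Trpc6 (r = 0.357, rho = 0.250), Trpc1 (r = 0.114, rho = -0.117) and Orai1 (r = -0.427, rho = -0.400) did not pass, with exact permutation p for r of 0.344, 0.773 and 0.254 (adjusted 0.382, 0.773 and 0.317) and for rho of 0.521, 0.776 and 0.291.

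The same order was seen inside the groups. There are 9 pairs of libraries within a group, and the library with more Myh11 also had more Cacna1c, Cacna1h, Cacnb2, Itpr1 and Atp2a2 in 9 of 9 pairs, more Trpc6 in 8, more Ryr2 and Stim1 in 7, and more Trpc1 and Orai1 in 4. With the group means removed, r was 0.973 for Cacna1c, 0.968 for Atp2a2, 0.935 for Stim1 and 0.650 for Trpc6. Without normal replicate 1 and replicate 3 at 1 h, the 2 libraries farthest from the median of Myh11, r stayed between 0.639 (Ryr2) and 0.931 (Atp2a2) for the first 6 genes and was 0.830 for Stim1, 0.113 for Trpc6 and 0.0609 for Orai1. For Trpc1 it turned to -0.917, so that its value over 9 libraries rested on those 2. All points share a library's depth, scaling and share of other tissue. Neither the relation with Myh11 nor the pair counts were computed over all genes, so how common such values are is not known. Libraries fell into a low and a high range of Myh11, and neither range holds the 6 libraries that a separate r would need. The permutation shuffled the 9 libraries freely across groups. Its p therefore does not allow for these ranges, for the groups or for rats that groups may share. Nerve content ran the other way for most of these genes. Within a group, the library with the higher nerve score (mean log2 CPM of the nerve markers) also had more Cacna1c, Cacna1h, Cacnb2, Itpr1 and Atp2a2 in 1 of 9 pairs, more Trpc6 in 2, more Ryr2 and Stim1 in 3, more Orai1 in 4 and more Trpc1 in 6. With the group means removed, r with the nerve score ran from -0.809 (Cacna1h) to 0.314 (Trpc1), as a description with no test, because the libraries fell into separate clusters of that score.

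**Figure D2:**
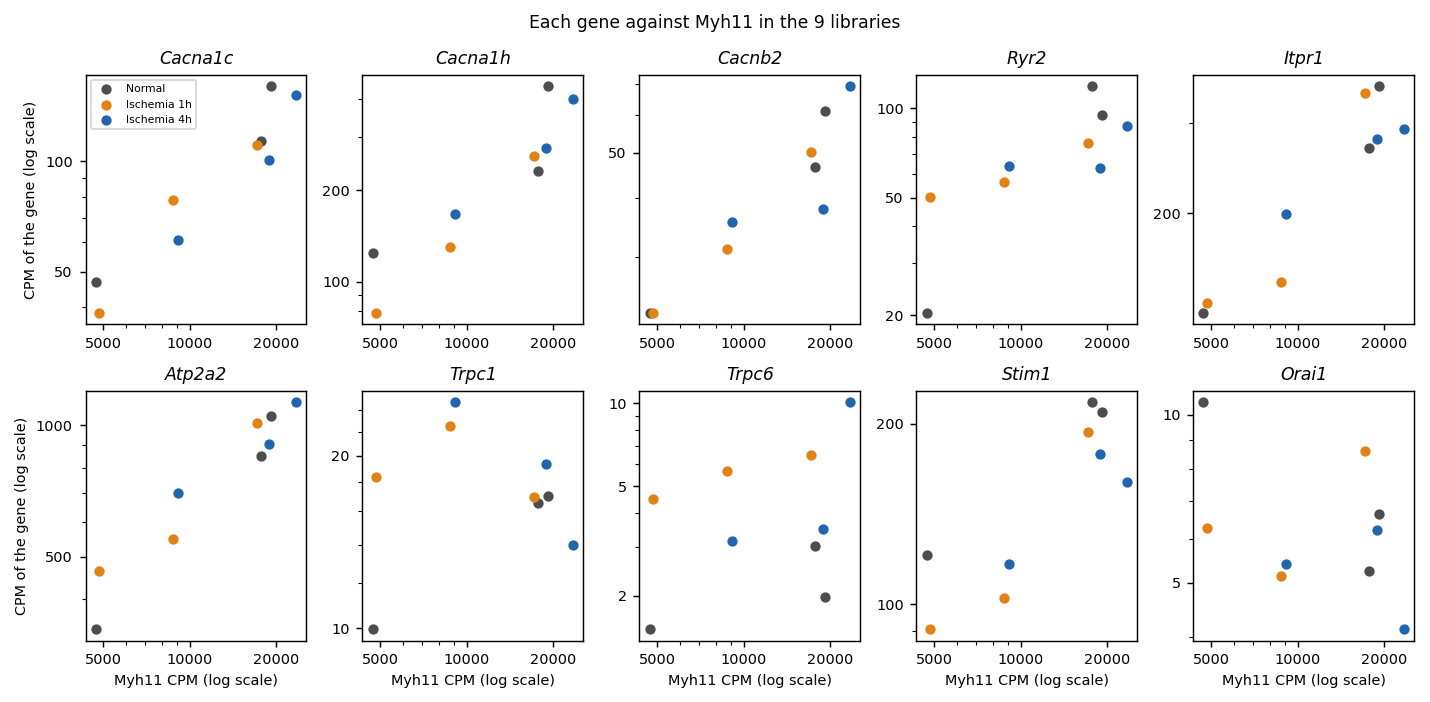
Level of each of the 10 genes (CPM, log scale) against Myh11 (CPM, log scale) in the 9 libraries, coloured by group. Points of Cacna1c, Cacna1h, Cacnb2, Itpr1 and Atp2a2 climb with Myh11 in all groups, while Trpc1 and Orai1 show no such climb.

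Set against Myh11 in the same library, the spread of the first 6 genes narrowed and that of the others widened. Over the 9 libraries the highest level was 4.17-fold the lowest for Cacna1c, and for its ratio to Myh11 1.88-fold. The span went from 5.63-fold to 2.02-fold for Cacna1h, from 3.04-fold to 2.43-fold for Cacnb2 and from 5.84-fold to 3.13-fold for Ryr2. It went from 2.78-fold to 2.23-fold for Itpr1 and from 3.31-fold to 2.01-fold for Atp2a2. In the other direction, it went from 2.39-fold to 3.79-fold for Stim1, from 2.49-fold to 6.39-fold for Trpc1, from 6.67-fold to 8.74-fold for Trpc6 and from 2.55-fold to 12.5-fold for Orai1. Myh11 itself spanned 5.01-fold, and a gene that did not follow it takes that span into its ratio. Stim1, whose ratio also widened, did follow Myh11 by r (0.845).

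The ratio to Myh11 was free of overlap for 1 of the 10 genes at 1 h against normal (2.44% of all genes) and for 0 at 4 h against normal (5.42% of all) and at 4 h against 1 h (2.47% of all). The gene was Trpc6. Per 1000 CPM of Myh11, Trpc6 was at 0.351, 0.110 and 0.179 CPM in the normal group, 0.668, 0.387 and 0.958 CPM at 1 h and 0.435, 0.191 and 0.364 CPM at 4 h. The log2 ratio was 1.72 higher at 1 h than in the normal group, with an exact permutation p of 0.1, the smallest that 3 against 3 libraries can give, and 0.71 higher at 4 h with overlap (exact permutation p = 0.2). The difference in log2 ratio for the other 9 genes at 1 h ran from -0.37 (Cacna1h) to 0.82 (Trpc1), and at 4 h from -0.90 (Orai1) to -0.03 (Trpc1). These counts moved with single libraries, since fewer libraries overlap less. The share of all genes was not computed with a library left out, so the counts that follow cannot be set against one. For 1 h against normal, leaving out normal replicate 1 gave 4 genes, and leaving out normal replicate 3 or the second library at 1 h gave 2. For 4 h against normal, 1 gene was free of overlap when normal replicate 1 or replicate 2 of the 4 h group was omitted, 2 when normal replicate 3 was, and 4 when replicate 3 of the 4 h group was. For 4 h against 1 h, the omission of replicate 1 or 2 of the 4 h group gave 1 gene, that of replicate 2 of the 1 h group gave 2, and that of replicate 3 of the 4 h group gave 6.

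**Figure D3:**
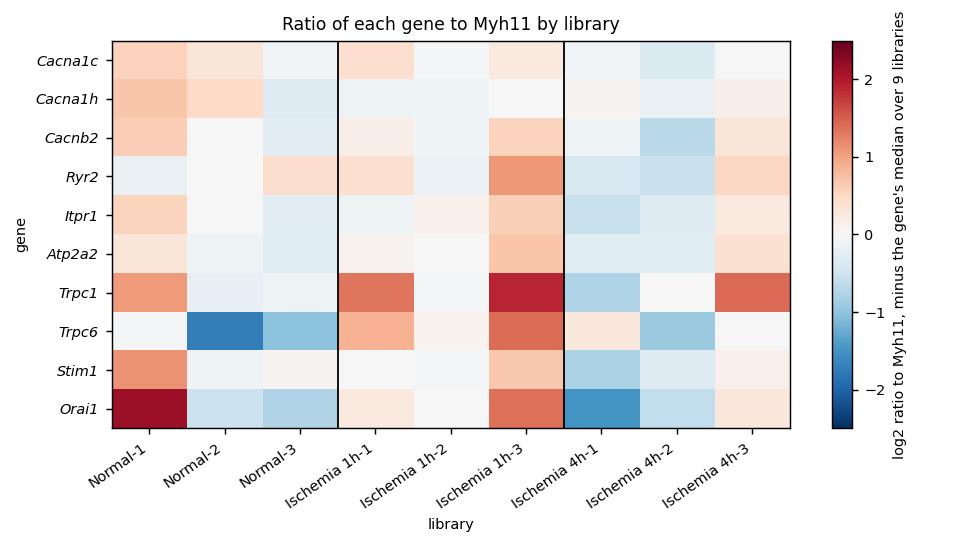
Log2 ratio of each gene to Myh11 in each library (columns, grouped by condition), minus that gene's median over the 9 libraries; red is above and blue below that median. Rows of Trpc1, Trpc6 and Orai1 carry the strongest colours, and Trpc6 is lower in 2 of 3 normal libraries than in any library at 1 h or 4 h.

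With Myh11 as a covariate in the edgeR fit, the errors of the genes that followed it shrank and none was called. The SE of Cacna1c at 1 h went from 0.54 to 0.18, and its log2 fold change from -0.50 to -0.14. Atp2a2 at 1 h was 0.17 ± 0.17 in that fit, against -0.15 ± 0.47 without Myh11, and Itpr1 was -0.02 ± 0.20. Cacna1h kept -0.48 ± 0.23 at 1 h (unadjusted p = 0.0769, edgeR adjusted p = 0.295). At an unadjusted p under 0.05, 1 of the 10 passed at 1 h, where 19.7% of all genes did in this fit, and 2 at 4 h (17.7% of all). Trpc6 was 1.56 ± 0.44 at 1 h (unadjusted p = 0.00795, edgeR adjusted p = 0.153) and 1.09 ± 0.45 at 4 h (adjusted p = 0.261 in edgeR). Stim1 was -0.45 ± 0.17 at 4 h (unadjusted p = 0.0328, edgeR adjusted p = 0.239).

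**Figure D4:**
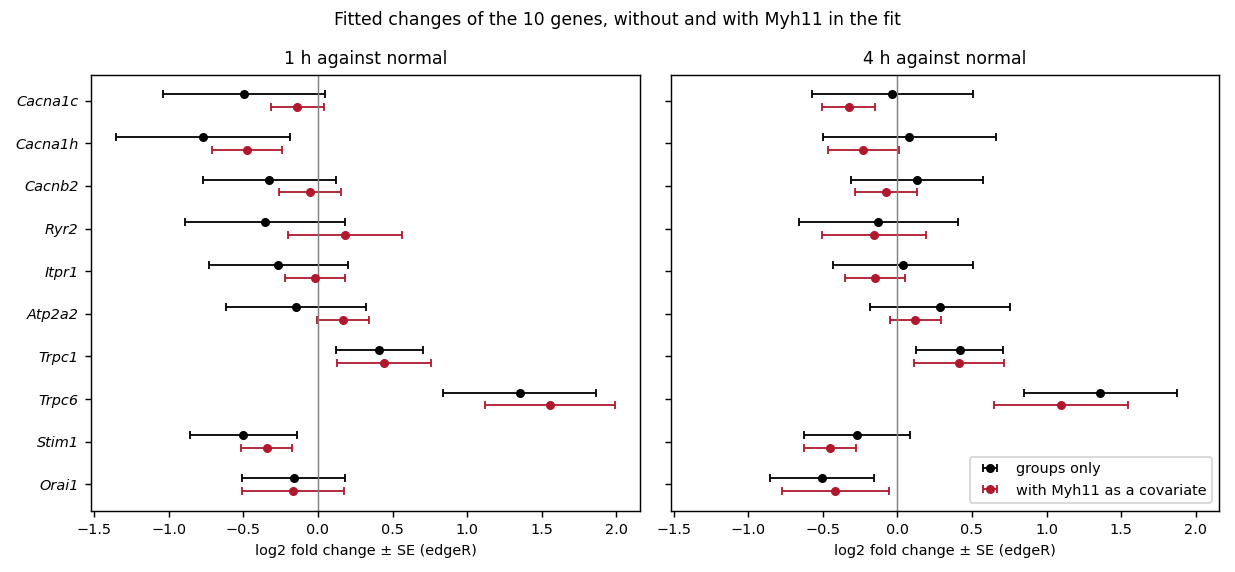
Fitted log2 fold change ± SE (edgeR, 9 libraries) of the 10 genes at 1 h and at 4 h against normal; black is the fit on groups only and red the fit with Myh11 as a covariate. Bars of the voltage-gated, release and pump genes shorten with Myh11 in the fit, and Trpc6 stays above 0 by more than 2 SE in both fits and at both times.

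The genes whose log2 CPM was most like that of each member were sought among 10425 tested genes of at least 5 CPM, by Pearson's r over the 9 libraries, as a description. Cacna1c was most like Npepo, Esyt2 and Pde5a, the phosphodiesterase that breaks down cyclic GMP (r = 0.987, 0.986 and 0.983). Cacna1h was most like Ggt5, Rbpms and Tenc1 (0.981, 0.980 and 0.976), and Cacnb2 like Lama5, Ror1 and Thrb (0.973, 0.973 and 0.972). Atp2a2 was most like Ror2, Msrb3 and Dstnl1 (0.997, 0.986 and 0.983), and Itpr1 like Cped1, Cuedc1 and Lrch1 (0.982, 0.974 and 0.973). Ryr2 was most like Fem1a, Trpm8, a cold-sensing cation channel, and Prkaa2, a catalytic subunit of AMP-activated kinase (0.982, 0.976 and 0.972). Stim1 was most like Itga1, Kank2 and Gpc4 (0.987, 0.975 and 0.975), Trpc1 like Dock11, Slc2a13 and Akap6 (0.959, 0.950 and 0.947), Trpc6 like Golt1b, Sdk2 and Cbr4 (0.933, 0.927 and 0.925) and Orai1 like Notch4, Edc3 and the complement inhibitor gene Serping1 (0.966, 0.962 and 0.960). Myh11 ranked 28th for Atp2a2, 34th for Itpr1, 45th for Cacnb2, 53rd for Cacna1c and 99th for Cacna1h. It ranked 187th for Ryr2 and 361st for Stim1. For Trpc6, Trpc1 and Orai1 its rank was 2311, 4303 and 8367. With so many genes and 9 libraries, high values of r are found for any pattern.

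Of 68 other calcium genes in 7 roles, 64 were tested, and the 4 left out for low counts were Cacna1i, Cacna1s, Ryr1 and Sln. None was called by edgeR in any comparison. At an unadjusted p under 0.05 there were 12 at 1 h (8 higher and 4 lower), where 16.7% of all genes passed, 3 at 4 h (2 higher and 1 lower, 12.4% of all) and 0 at 4 h against 1 h (2.58% of all). DESeq2 called 2 at 1 h, where it called 2.77% of all genes: Trpv4, a channel opened by stretch and lipids (log2 fold change 2.60 ± 0.77, DESeq2 adjusted p = 0.0275), and Ccdc109b, the inhibitory subunit of the mitochondrial calcium uniporter also named Mcub (2.90 ± 0.91, DESeq2 adjusted p = 0.0392). In edgeR these had adjusted p of 0.239 and 0.26. Trpv4 was at 8.12, 14.7 and 3.55 CPM in the normal group, 8.56, 90.6 and 57.6 CPM at 1 h and 22.8, 21.4 and 40.8 CPM at 4 h, with replicate 1 at 1 h inside the normal range. Ccdc109b was at 2.52, 0.292 and 1.26 CPM in the normal group, 12.2, 4.14 and 13.5 CPM at 1 h and 2.98, 1.08 and 9.97 CPM at 4 h, highest in the 3 libraries with the most nerve markers.

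Store-operated entry held the smallest p of the wider list. Tmem110, a protein of the endoplasmic reticulum known to aid the coupling of Stim1 and Orai1, was at 25.2, 26.7 and 25.8 CPM in the normal group, 16.1, 14.7 and 19.0 CPM at 1 h and 19.5, 14.7 and 15.8 CPM at 4 h. All 6 ischemic libraries lay below all 3 normal ones. Its log2 fold change was -0.64 ± 0.19 at 1 h (unadjusted p = 0.00829, edgeR adjusted p = 0.227) and -0.64 ± 0.19 at 4 h (unadjusted p = 0.0085, edgeR adjusted p = 0.22), and it failed the correction. Orai3, the sister pore of Orai1, was at 15.8, 25.9 and 34.3 CPM in the normal group, 14.8, 12.2 and 8.72 CPM at 1 h and 20.7, 20.2 and 8.12 CPM at 4 h, -1.09 ± 0.43 on the log2 scale at 1 h and -0.63 ± 0.42 at 4 h. Its normal libraries lay above those at 1 h, but the highest Orai3 at 1 h was close to the lowest normal value.

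Of the remaining 6 genes named by the rule, Letm1, Atp2b1, Atp2a3 and Trpc5 did not overlap with the normal group at 1 h. Letm1 and Atp2b1 did not at 4 h, and Calr and Mcur1 overlapped at both times. Over all genes, CPM did not overlap for 26.3% at 1 h and 18.7% at 4 h. Among the 64 genes of the wider list it was 13 higher and 3 lower at 1 h, and 5 higher and 1 lower at 4 h. The 6 genes were named by their p in these comparisons, so their lack of overlap is no separate evidence. Letm1, of the inner mitochondrial membrane, was at 25.9, 28.1 and 29.5 CPM in the normal group, 44.1, 40.6 and 38.8 CPM at 1 h and 33.2, 30.8 and 44.0 CPM at 4 h (0.56 ± 0.18 at 1 h, edgeR adjusted p = 0.236). Atp2a3, the SERCA3 pump, was at 182, 199.8 and 142 CPM in the normal group, 59.2, 141 and 90.3 CPM at 1 h and 143, 149 and 112 CPM at 4 h (-0.85 ± 0.32 at 1 h, edgeR adjusted p = 0.275), and its highest library at 1 h was within 1 CPM of its lowest normal one. Atp2b1, the plasma membrane calcium pump, was at 106, 102 and 108 CPM in the normal group, 140.5, 133 and 116 CPM at 1 h and 139, 136 and 130.3 CPM at 4 h (0.36 ± 0.14 at 4 h, edgeR adjusted p = 0.36). Calr, the calcium-binding chaperone of the store, was at 249, 246 and 387 CPM in the normal group, 484, 395 and 344 CPM at 1 h and 534, 379 and 448 CPM at 4 h (0.63 ± 0.27 at 4 h, edgeR adjusted p = 0.39). Mcur1, a regulator of mitochondrial uptake, was at 13.4, 11.8 and 10.5 CPM in the normal group, 11.5, 10.8 and 10.9 CPM at 1 h and 5.37, 7.88 and 11.8 CPM at 4 h (-0.51 ± 0.29 at 4 h, edgeR adjusted p = 0.523). Trpc5 was at 0.224, 0 and 0.0739 CPM in the normal group, 12.3, 1.20 and 6.88 CPM at 1 h and 0, 0 and 12.3 CPM at 4 h, so that its value at 4 h came from replicate 3 alone. It was highest in the libraries with the most nerve markers, replicates 1 and 3 at 1 h and replicate 3 at 4 h. The part of nerve content in Trpc5 was not tested.

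By role, the 11 tested genes of other voltage-gated subunits had a median log2 fold change of 1.79 at 1 h, with 9 of 11 above 0 and 1 past an unadjusted p of 0.05, where 16.7% of all genes passed. Cacna1b, the pore of the N-type channel of nerve endings, named here after its values were seen, was at 3.81, 0 and 3.47 CPM in the normal group, 102, 10.2 and 89.6 CPM at 1 h and 0, 0.166 and 102 CPM at 4 h. Its 3 high libraries, replicates 1 and 3 at 1 h and replicate 3 at 4 h, were the 3 with the most nerve markers, in which Dbh was at 1854, 1866 and 2041 CPM against at most 226 CPM elsewhere. The part of nerve content in the other voltage-gated values was not tested. The median was 0.05 for store-operated entry, 0.04 for receptor-operated and mechanosensitive entry, -0.05 for store release, -0.56 for store buffers and uptake, 0.31 for extrusion and 0.24 for mitochondrial uptake at 1 h. At 4 h the 7 medians ran from -0.14 (store-operated entry) to 0.88 (voltage-gated entry). Over all 64 genes the median was 0.16 at 1 h and 0.36 at 4 h, against -0.01 and 0.03 over all genes. For the 10 members, adding the nerve marker score to the fit left 0 called, and Trpc6 at 1 h was then 1.81 ± 0.57 (edgeR adjusted p = 0.398).

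**Figure D5:**
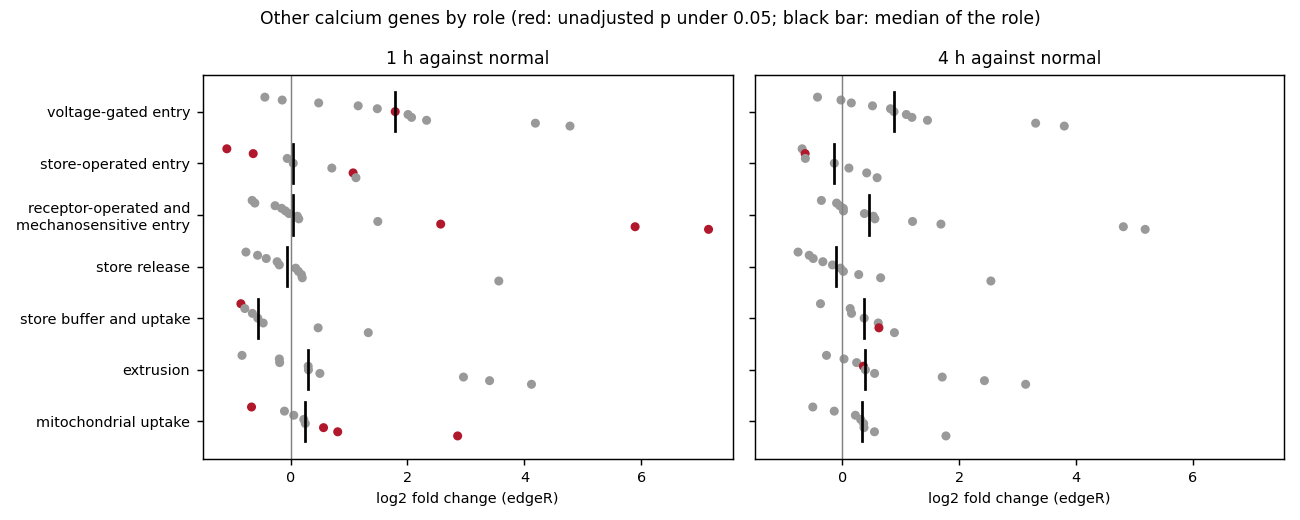
Fitted log2 fold change (edgeR) of the 64 tested other calcium genes, by role, at 1 h and at 4 h against normal; red points passed an unadjusted p under 0.05 and black bars are the median of each role. Voltage-gated genes have the highest median at both times, 1.79 and 0.88, and no point passed the correction over all genes.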

How the data were processed

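Transcripts of rat SMAs were measured by sequencing (Illumina HiSeq Xten per the series text) in 9 libraries of 3 groups, taken from the sample labels. Per the labels, total RNA was extracted with Trizol and libraries followed standard Illumina steps. The authors deposited raw read counts per gene symbol, and every column matched a sample title. The submitters' processing notes name HISAT2. Its role and version, the counter, the genome build, the annotation and the use of strand are not given in the sources used here, so reads of overlapping or antisense genes cannot be told apart. The study's methods describe Agilent microarrays. The table holds whole-number counts and was analysed as such.

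Counts were tested in R 4.3.3 with edgeR 4.0.16: filterByExpr, TMM scaling, glmQLFit and glmQLFTest on all 9 libraries with group as the only term, and Benjamini-Hochberg adjustment over 15482 genes. Calls needed an adjusted p under 0.05 and a fold change over 1.5, the study's thresholds. SE is the log2 fold change divided by the root of F. Ratios and relations used log2 CPM (prior count 2) and exact two-sided permutation tests (Python 3.11.15, numpy 2.4.6). The relation with the nerve score was not tested, because libraries fell into separate clusters of that score, and is described within groups. The common biological coefficient of variation was 51.6%. No library copied another, since the chi-square of any pair of libraries over genes was at least 23.2 times its degrees of freedom. The procedure was tested on simulated counts.

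Alternatives were other scaling, no filter, DESeq2 1.42.0, fewer groups, a replicate block, the nerve score or Myh11 as a covariate, and each library left out. The 10 genes, the lists and the tests were chosen with earlier results of these data known. Named from the wider list were called genes and, at each time against normal, the 3 rising and 3 falling genes with the smallest unadjusted p of at least 1 CPM on average. For likeness, the 3 genes of highest r were named. Levels were not compared between genes, because transcript lengths were not used here, and no coordinates other than promoter windows are given. Of the genes tested, 88.2% matched a RefSeq symbol or synonym. Markers of other cell types were summed per library.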

Additional observations from a re-analysis of the deposited data

How the results depend on the processing

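All 10 genes stayed uncalled in each comparison under every alternative, and so did the 64 genes of the wider list, except that DESeq2 called 2 of them at 1 h against 0 by edgeR. Over all genes the number called at 1 h, 4 h and 4 h against 1 h was 9, 14 and 0 by edgeR, 658, 557 and 0 by DESeq2, 15, 118 and 0 with the nerve score as a covariate, 37, 90 and 0 with Myh11 as a covariate, and 4, 4 and 0 with only the groups compared in the fit. Without 1 library it ran from 0 to 11 at 1 h and from 1 to 14 at 4 h. The log2 fold changes of Trpc6, Trpc1 and Stim1 against normal kept their direction under every alternative. Adding the nerve score turned the 1 h values of Cacna1c, Cacna1h, Cacnb2, Itpr1 and Atp2a2 to 0.34, 0.18, 0.27, 0.34 and 0.44, and Cacna1c at 4 h to 0.0565. With Myh11 as a covariate Ryr2 and Atp2a2 turned to 0.18 and 0.17 at 1 h, and Cacna1h, Cacnb2 and Itpr1 to -0.23, -0.0778 and -0.15 at 4 h. Scaling by library size alone moved the median of all genes to -0.15 at 4 h and -0.24 at 4 h against 1 h, and Cacna1h, Cacnb2 and Itpr1 at 4 h to -0.13, -0.0524 and -0.13, all above that median. All of these reversals were of values within about 1.5 SE of 0, and their cause was not tested.

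Without 1 library at a time, the 1 h log2 fold change ranged over -0.56 to 0.15 for Atp2a2, -0.88 to -0.12 for Cacna1c, -1.35 to -0.21 for Cacna1h, -0.69 to -0.0256 for Cacnb2, -0.92 to -0.32 for Stim1, -0.84 to 0.0445 for Itpr1, -0.39 to 0.17 for Orai1 and -0.81 to 0.0822 for Ryr2. At 4 h it ranged over -0.0609 to 0.60 for Atp2a2, -0.43 to 0.37 for Cacna1c, -0.29 to 0.66 for Cacna1h, -0.27 to 0.45 for Cacnb2, -0.28 to 0.37 for Itpr1 and -0.58 to 0.31 for Ryr2. The number of genes whose ratio to Myh11 did not overlap ranged from 1 to 4 at 1 h, 0 to 4 at 4 h and 0 to 6 at 4 h against 1 h. No share of all genes was computed beside these counts. The relations with Myh11 were also computed without each library and with the mean of the smooth muscle markers in its place, choices made after seeing the data. The same number of genes, 7 of 10, passed an adjusted p of 0.05 each time, and r of Trpc1 ranged from -0.600 to 0.272, negative without normal replicate 1. The relation with Myh11 was not computed over all genes, so no share of all genes stands beside that count.

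Labels number the replicates alike in each group, and same-numbered libraries correlated in their deviations from the group mean from -0.651 to 0.660. Tissue content also enters these deviations, so they cannot show whether the numbers pair the libraries. The fit with a replicate block called 0 of the 10 genes and 7, 7 and 0 genes in all, turned Ryr2 at 4 h to 0.0437, and gave Trpc6 an unadjusted p of 0.0556 at 1 h and 0.0773 at 4 h (edgeR). With 3 libraries per group, the changes fitted for the 10 genes carried wide errors. Trpc6 and Orai1 had low counts, but their SE at 1 h (0.51 and 0.35) was below that of Cacna1h (0.58), which had more counts.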

Other observations

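Of the other cell types that a whole SMA can carry, the markers of 6 summed to ranges that overlapped between all groups. Those of endothelium, given above, overlapped as well. The sums of nerve and of heart muscle markers did not overlap between the normal group and 1 h. For heart muscle the gap was narrow, 2.59 CPM in normal replicate 3 against 3.14 CPM in replicate 1 at 1 h. Only replicate 2 at 1 h stood high, at 71.4 CPM. The 9 Schwann cell markers summed to 135 to 4259.6 CPM in the normal group, 943 to 2261 CPM at 1 h and 355 to 2087 CPM at 4 h. The 8 adipocyte markers summed to 451 to 2643 CPM in the normal group, 1006 to 2385 CPM at 1 h and 391 to 1181 CPM at 4 h, and the 7 macrophage markers to 33.1 to 107 CPM in the normal group, 52.7 to 82.8 CPM at 1 h and 21.2 to 61.7 CPM at 4 h. The 7 exocrine pancreas markers summed to 11.1 to 43.7 CPM in the normal group, 3.34 to 135 CPM at 1 h and 5.37 to 109 CPM at 4 h. Of 9 skeletal muscle markers 4 had enough counts to be tested, and all 9 summed to 27.4 to 174 CPM in the normal group, 32.2 to 110.1 CPM at 1 h and 55.7 to 206 CPM at 4 h. Acta1 made up most of this sum in every library. Like Myh11, Acta1 was lowest in normal replicate 1 (16.2 CPM) and highest in replicate 1 at 4 h (145 CPM). Myh1, Myh2, Myh4, Tnni2 and Mylpf never exceeded 2.51 CPM. The sum is therefore no clear measure of skeletal muscle, and the part of smooth muscle in Acta1 was not tested. None of the 7 lymphocyte markers had enough counts to be tested, and they summed to 0.222 to 17.9 CPM in the normal group, 0.201 to 36.2 CPM at 1 h and 0.264 to 0.746 CPM at 4 h.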
